A study of Mus musculus with 48 samples.

Results

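The genes described here encode the proteins of the mitochondrial ribosome. They were taken by name, as every gene whose symbol on the array's annotation is Mrpl or Mrps followed by a number and at most 1 letter. That gave 76 of the 18193 genes measured, 49 of them in the large subunit (the Mrpl genes together with Mrps18a and Mrps30), 26 in the small subunit, and Mrps36, which carries a ribosomal name but belongs to the oxoglutarate dehydrogenase complex. Each gene was read by its probe set, a group of oligonucleotides on the array, with the highest mean signal. RNA came from C2C12 cells, an established mouse myoblast line that fuses into myotubes when serum is lowered, and was hybridised to 48 Affymetrix MOE430v2 arrays in 16 groups of 3. Untreated cells were collected in medium with 20% fetal bovine serum at -24 h and at 0 h, and in medium with 2% horse serum at 0.5, 1, 1.5, 2, 3, 6, 9, 12, 24, 48, 96 and 144 h after the switch. In 2 further groups, collected at 1 h and 3 h after the switch, 50 µM cycloheximide, an inhibitor of cytosolic protein synthesis, had been added 1 h before it. All cells were the same line with no genetic change named in the labels, and the 3 cultures of a group came from successive passages, so p-values measure the spread between passages of 1 line.

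Mitochondria keep a small genome of their own, and the ribosomes that read it make core subunits of the respiratory chain and of ATP synthase. All proteins of these ribosomes are encoded in the nucleus, made in the cytosol and imported, while their ribosomal RNAs come from the mitochondrial genome. Some of the proteins have relatives in bacteria and others occur only in mitochondria. Mitochondrial content and respiratory capacity are known to increase when myoblasts become myotubes.

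Levels are log2 values made by the authors with RMA, and a log2 difference of 1 is a doubling. Array medians ran from 4.003 to 4.157 without cycloheximide and from 4.20 to 4.24 with it. The mean over the 8 muscle markers ran from 6.13 to 6.41 on the -24 h arrays, from 7.99 to 9.37 at 0 h and from 11.63 to 12.11 at 144 h. The markers of leukocytes (3 of 4 measured), adipocytes (3 of 5) and endothelium (3 of 3) had means between 3.15 and 4.38 in every array. A gene is said to rise or fall where limma's moderated test gave a Benjamini-Hochberg adjusted p under 0.05 over all 18193 genes. In bulk RNA of this kind, fewer cells of a type and less RNA per cell cannot be told apart.

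The mitochondrial ribosome genes were lowest around the switch of medium and highest in differentiated cells. The mean over the 76 genes was 9.01 ± 0.12 (SD, n = 3) at -24 h and 8.78 ± 0.08 at 0 h. Between 0.5 h and 12 h it ran from 8.81 ± 0.12 (2 h) to 8.96 ± 0.17 (9 h), with 8.83 ± 0.04 at 6 h and 8.84 ± 0.09 at 12 h. After 24 h it was 9.01 ± 0.03. The late groups had 9.17 ± 0.14 (48 h), 9.14 ± 0.07 (96 h) and 9.10 ± 0.17 (144 h). Both subunits followed this course: the large subunit's mean went from 8.87 ± 0.07 at 0 h to 9.25 ± 0.15 at 48 h, and the small subunit's from 8.60 ± 0.10 to 9.04 ± 0.13. Of the 14 untreated groups, 28 genes were lowest at 0 h, while 16 had their minimum at 2 h and 10 theirs at 3 h. The highest level was that of 48 h for 24 genes and of 96 h for 16, while 13 genes peaked at 144 h and another 13 at -24 h. At -24 h the first replicate stood above the other 2, and at 144 h it stood below them.

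**Figure D1:**
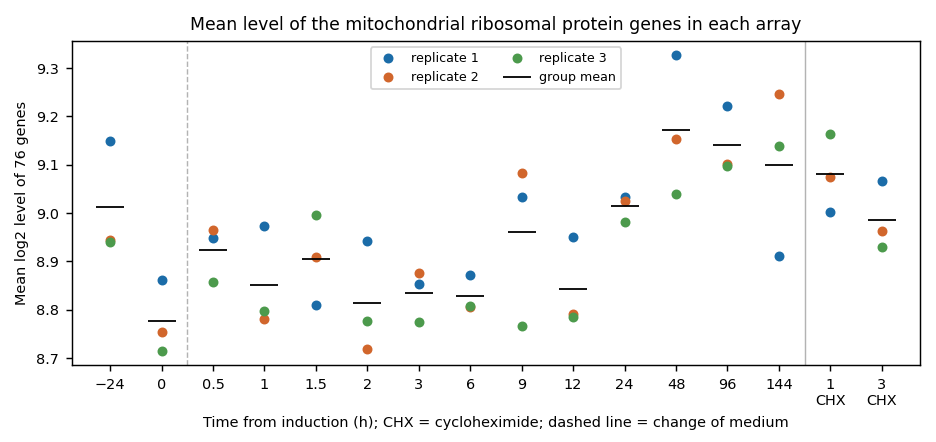
Mean log2 level of the 76 genes in each of the 48 arrays (points, coloured by replicate) with group means (black bars), by time from induction in hours; the 2 groups on the right had cycloheximide (CHX). The 0 h arrays lie between 8.72 and 8.86 and the 48 h arrays between 9.04 and 9.33.

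The genes moved largely together. Over the 14 untreated group means, the correlation of each gene with the mean of the other 75 had a median of 0.83 and was above 0.5 for 63 genes. These groups share the cultures' passages, so the values are a description. The closest to the common course were Mrps18b (0.97), Mrpl11 (0.96) and Mrps7 (0.96). The 3 genes with a correlation below 0 were Mrpl47 (-0.32), Mrps35 (-0.12) and Mrpl58 (-0.04), the last of which encodes a peptidyl-tRNA hydrolase that is also built into the large subunit. All 76 genes had a mean signal above the median gene, which was 5.25. Their mean signals had a median of 9.04 and ran from 6.28 for Mrpl1, 6.78 for Mrps27 and 7.32 for Mrps5 up to 10.62 for Mrpl52, 10.82 for Mrpl42 and 11.03 for Mrpl13, but signals of different probe sets depend on their probes and do not rank the transcripts.

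**Figure D2:**
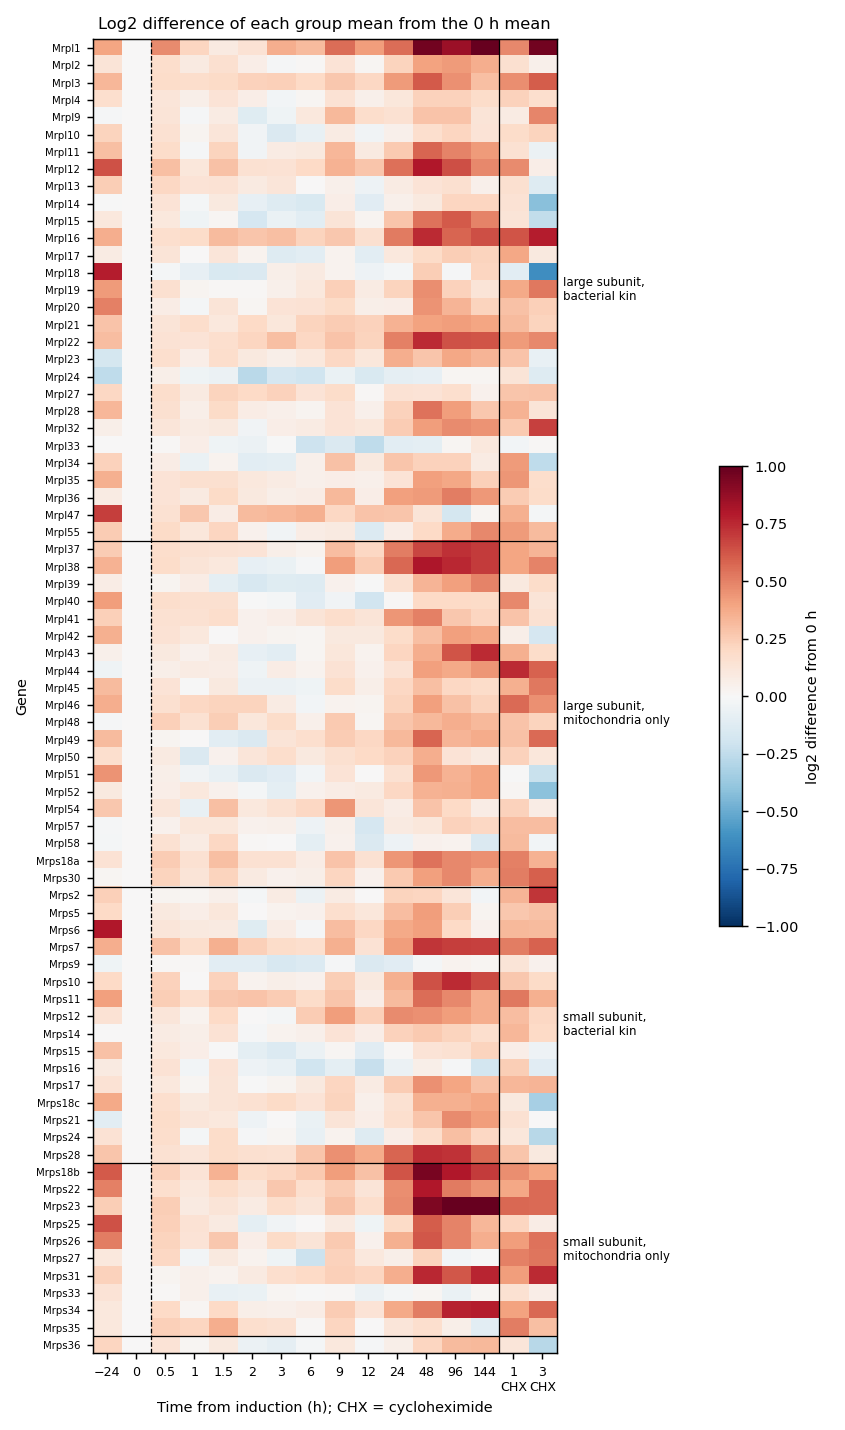
Difference of each group mean from the 0 h mean, on the log2 scale, for all 76 genes (rows; large subunit above, small subunit below, each split into proteins with bacterial relatives and those found only in mitochondria, with Mrps36 in the last row) in the 16 groups (columns). Mrps18a and Mrps18b are placed among those found only in mitochondria although they have a bacterial relative. Red is higher and blue lower than at 0 h, with colours ending at 1 and -1; Mrps23 reaches 1.02 at 144 h, and Mrps6 and Mrpl18 are high at -24 h and lower in every later untreated group.

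During the last day in growth medium, 21 of the 76 genes fell and none rose. Of all genes, 5.86% fell and 7.26% rose in the same comparison (13.1% called in all). The median difference between 0 h and -24 h was -0.23 for the 76 genes and 0.01 for all genes. The 21 spanned both subunits, and the 5 that fell most were Mrps6, Mrpl18, Mrpl47, Mrpl12 and Mrps25.

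Mrps6 encodes a small-subunit protein with a bacterial relative. Its levels were 10.72, 10.46 and 10.15 at -24 h and 9.68, 9.69 and 9.55 at 0 h, so the groups did not overlap. The gene fell by 0.80 (SE 0.13, adjusted p = 1.24e-05). Mrpl18 encodes a large-subunit protein whose human counterpart takes part in bringing ribosomal RNA into mitochondria. It read 9.87, 9.38 and 9.40 at -24 h against 8.73, 8.70 and 8.86 at 0 h, again without overlap, and fell by 0.78 (SE 0.12, adjusted p = 1.52e-05).

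Mrpl12 encodes the stalk protein of the large subunit, which also binds the mitochondrial RNA polymerase. It read 10.27, 9.78 and 9.66 at -24 h and 9.56, 9.26 and 8.99 at 0 h, and fell by 0.64 (SE 0.17, adjusted p = 0.00872). Within each group its first replicate was the highest. The call was lost without the first -24 h array or without the third 0 h array (adjusted p between 0.0824 and 0.149). Mrps25, of the small subunit, read 8.66, 8.41 and 8.48 against 7.92, 7.84 and 7.89 and fell by 0.63 (SE 0.15, adjusted p = 0.00236). Mrpl47, of the large subunit, read 9.23, 8.60 and 8.88 against 8.21, 8.06 and 8.38 and fell by 0.69 (SE 0.18, adjusted p = 0.00523). Both genes lost the call when all their probe sets were averaged, and Mrpl47 also without the first -24 h array (adjusted p = 0.0891). In all 5 genes every 0 h array lay below every -24 h array.

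Without the first -24 h array, 9 genes were called. With only these 6 arrays in the fit, 13 were. The shares of all genes in these fits are not given here, so the counts show only their dependence on the arrays used. When the arrays were centred on 13 housekeeping genes, which moved the median of all genes to 0.16, 9 of the 76 fell (Mrps6, Mrpl18, Mrpl47, Mrpl12 and Mrps25 among them) and 2 rose, Mrpl23 and Mrpl24. In that scaling 3.47% of all genes fell and 13.8% rose. All 3 arrays at 0 h lay below all 3 at -24 h for 31 of the 76 genes, against 13% of all genes.

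In the first 12 h after the switch, few of these genes were called. The median difference of the 76 from 0 h was lowest at 2 h (0.04, against 0.01 for all genes). It was highest at 9 h (0.18, against 0.01), and at 0.5 h it was 0.15, against 0.02. Against 0 h, limma called none of the 76 at 0.5 h (0.0385% of all genes called), 1 h (0.192%), 1.5 h (0.423%), 2 h (0.517%), 3 h (0.39%), 6 h (0.506%) or 12 h (2.82%). At an unadjusted p under 0.05 there were between 0 and 7 of the 76 at these times, against 2.7% to 13.5% of all genes. At 9 h, 2 of the 76 genes rose, against 0.748% of all genes (1.36% called in either direction), and 22 had an unadjusted p under 0.05, as did 10.4% of all genes. Over the 8 times together, 2 of the 76 were called, against 3.96% of all genes. The 2 were Mrps28 and Mrps18b, both of the small subunit.

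Mrps28 read 8.89, 8.67 and 8.69 at 0 h and 9.25, 9.31 and 9.06 at 9 h. All 3 arrays at 9 h were higher, as they were for 7.5% of all genes. Mrps28 rose by 0.45 (SE 0.11, adjusted p = 0.0217). Mrps18b rose by 0.42 (SE 0.11, adjusted p = 0.0472), from 8.25, 8.06 and 8.11 to 8.60, 8.65 and 8.45. Both calls were lost without the second or the third 0 h array or without the first or second 9 h array, and that of Mrps18b also on leaving out any of 11 arrays of other early times (adjusted p between 0.0516 and 0.260 for it). With the replicate number as a block, which pairs these groups, 5 genes rose at 9 h, adding Mrpl1, Mrpl38 and Mrps12 (differences of 0.56, 0.41 and 0.42), and 1, Mrps28, rose at 12 h. In that fit 2.59% of all genes rose at 9 h and 2.65% at 12 h.

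**Figure D3:**
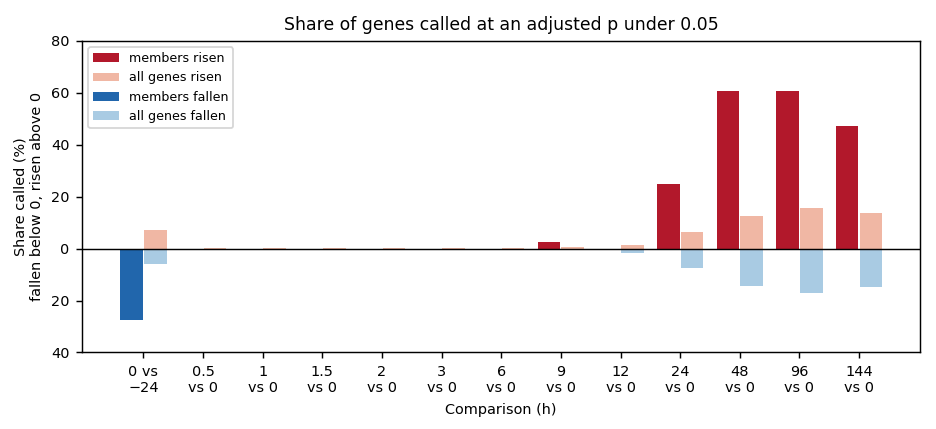
Share of the 76 genes (dark bars) and of all 18193 genes (pale bars) that rose (red, upward) or fell (blue, downward) at an adjusted p under 0.05 for 0 h against -24 h and for the 12 later untreated times against 0 h. Among these 13 comparisons the members' bars point down only for 0 h against -24 h (27.6%) and reach 60.5% upward at 48 h and 96 h.

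From 24 h on the genes of the mitochondrial ribosome rose, and none fell at any later time against 0 h. At 24 h, 19 of 76 rose, against 6.56% of all genes (14% called in all), with a median difference of 0.22 for the 76 and 0.05 for all genes. At 48 h, 46 of 76 rose (28 of the 49 in the large and 18 of the 26 in the small subunit), against 12.4% (26.7% called in all), with medians of 0.40 and 0.06. At 96 h, 46 rose, against 15.5% (32.6%), with medians of 0.36 and 0.07. At 144 h, 36 rose, against 13.5% (28.4%), with medians of 0.33 and 0.04. An F-test over the 12 times called 46 of the 76 genes, against 38.2% of all genes.

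These comparisons share the 0 h arrays. In all, 51 of the 76 rose at 48, 96 or 144 h, against 20.9% of all genes. Of the 51, 2 were first called at 9 h and 17 more at 24 h. The first call of another 28 came at 48 h and that of the last 4 at 96 h (Mrpl48, Mrpl55, Mrpl57 and Mrps36), while 25 genes were never called, against 56.9% of all genes. At 24 h the count was 6 without the second 0 h array and 9 without the third. It was 7 without the first 24 h array and 9 without the second. After quantile normalization of all arrays again the count at 24 h was 30, with 13.9% of all genes called. At 144 h it was 23 without the second 144 h array and 18 with only the 6 arrays compared. Every 48 h array lay above every 0 h array for 51 of the 76 genes, against 20.3% of all genes. Centring on housekeeping genes left 31 of the 76 risen at 48 h and 27 at 144 h, against 6.66% and 10.1% of all genes. In that scaling 32 rose at 96 h, where 29.6% of all genes were called in either direction.

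The steps between neighbouring late times were small. Between 12 h and 24 h none of the 76 was called (1.34% of all genes; 13 of the 76 and 10.4% of all genes at an unadjusted p under 0.05), and with the replicate block, which pairs these groups, 3 rose, Mrpl16, Mrpl41 and Mrps22, against 2.8% of all genes. Between 24 h and 48 h, 3 rose, against 1.88% of all genes (3.89% called), namely Mrps23 by 0.46, Mrps31 by 0.39 and Mrps22 by 0.33 (adjusted p between 0.0404 and 0.0486). With the block these 3 and Mrpl20 and Mrps18b rose, 5 in all, against 4.1% of all genes. Without the block, none of the 76 was called when any 24 h array or the first 48 h array was left out. Between 48 h and 96 h none was called (4.64% of all genes; 5 of the 76 and 14.6% of all genes at an unadjusted p under 0.05), and with the block Mrps22 fell by 0.28, where 4.61% of all genes fell. Between 96 h and 144 h none was called (0.313% of all genes; 0 of the 76 and 8.03% of all genes at an unadjusted p under 0.05).

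Mrps18b, Mrps23 and Mrpl1 rose most. Mrps18b encodes a small-subunit protein. Its levels were 8.25, 8.06 and 8.11 at 0 h, 8.86, 8.82 and 8.63 at 24 h and 9.32, 9.12 and 8.85 at 48 h. It rose by 0.63 (SE 0.11, adjusted p = 0.000107) at 24 h and by 0.95 (SE 0.11, adjusted p = 2.05e-08) at 48 h, a 1.93-fold difference. At 96 h and 144 h it was 0.80 and 0.70 above 0 h. No 24 h or later array of this gene came down to a 0 h value.

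Mrps23, a small-subunit protein found only in mitochondria, kept its high level to the end. It read 8.14, 8.02 and 7.99 at 0 h, 9.17, 9.04 and 8.74 at 48 h and 8.85, 9.32 and 9.05 at 144 h. The differences from 0 h were 0.93 after 48 h, 1.01 after 96 h and 1.02 after 144 h (SE 0.14 each, adjusted p = 1.92e-07 at 144 h), the last a 2.03-fold difference. All 3 of its 144 h arrays lay above all 3 of its 0 h arrays, as they did for 19.1% of all genes.

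Mrpl1 encodes a protein of the large subunit's mobile side stalk. On its chosen probe set it read 5.77, 5.66 and 5.94 at 0 h and 6.79, 6.89 and 6.69 at 144 h, and it rose by 0.96 after 48 h (SE 0.16, adjusted p = 1.92e-05), by 0.86 after 96 h and by 1.00 after 144 h (adjusted p = 6.69e-06). The next probe set of the gene did not follow: it differed by -0.01 after 48 h, -0.49 after 96 h (adjusted p = 0.00807) and -0.31 after 144 h. The rise of Mrpl1 therefore holds for 1 of its 3 probe sets only. Over the genes called at 48 h, 47 of the 55 other probe sets had the sign of the chosen one, as did 25 of the 26 with a signal above the median gene. At 144 h these counts were 26 of 35 and 14 of 16, and for the fall from -24 h to 0 h they were 18 of 23 and 7 of 7.

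Mrpl38 and Mrpl12 completed the 5 genes with the largest rise at 48 h. Mrpl38, of the large subunit, read 7.94, 7.80 and 7.65 at 0 h and 8.92, 8.63 and 8.27 at 48 h, and rose by 0.58 until 24 h, by 0.81 until 48 h (SE 0.18, adjusted p = 0.000789) and by 0.76 until 96 h. Its 24 h call was lost without the second or the third 0 h array or the first or second 24 h array (adjusted p between 0.0694 and 0.130). Its chosen probe set has a suffix that marks possible cross-hybridisation, and on the brighter of its other probe sets the differences were 0.30 at 24 h (adjusted p = 0.0814), 0.33 at 48 h (adjusted p = 0.0316) and 0.20 at 96 h (adjusted p = 0.187), so that only the 48 h call held. Mrps28 was also among the leading genes at 24 h, with a rise of 0.58 (SE 0.11, adjusted p = 0.000193).

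At 144 h the leading genes were Mrps23, Mrpl1, Mrps34, Mrps31 and Mrpl43. Mrps34, a small-subunit protein found only in mitochondria, read 9.63, 9.24 and 9.16 at 0 h and 9.92, 10.31 and 10.16 at 144 h and rose by 0.79 (SE 0.15, adjusted p = 4.54e-05). It had risen by 0.77 at 96 h. Mrps31, also of the small subunit, read 7.83, 7.67 and 7.87 against 8.52, 8.61 and 8.52 and rose by 0.76 (SE 0.12, adjusted p = 1.55e-06).

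Mrpl43, of the large subunit, read 9.31, 9.21 and 9.14 at 0 h and 9.88, 10.08 and 9.92 at 144 h. It rose by 0.74 (SE 0.12, adjusted p = 2.37e-06), against 0.36 at 48 h. For these 3 genes all 144 h arrays lay above all 0 h arrays, as they did for 19.1% of all genes.

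**Figure D4:**
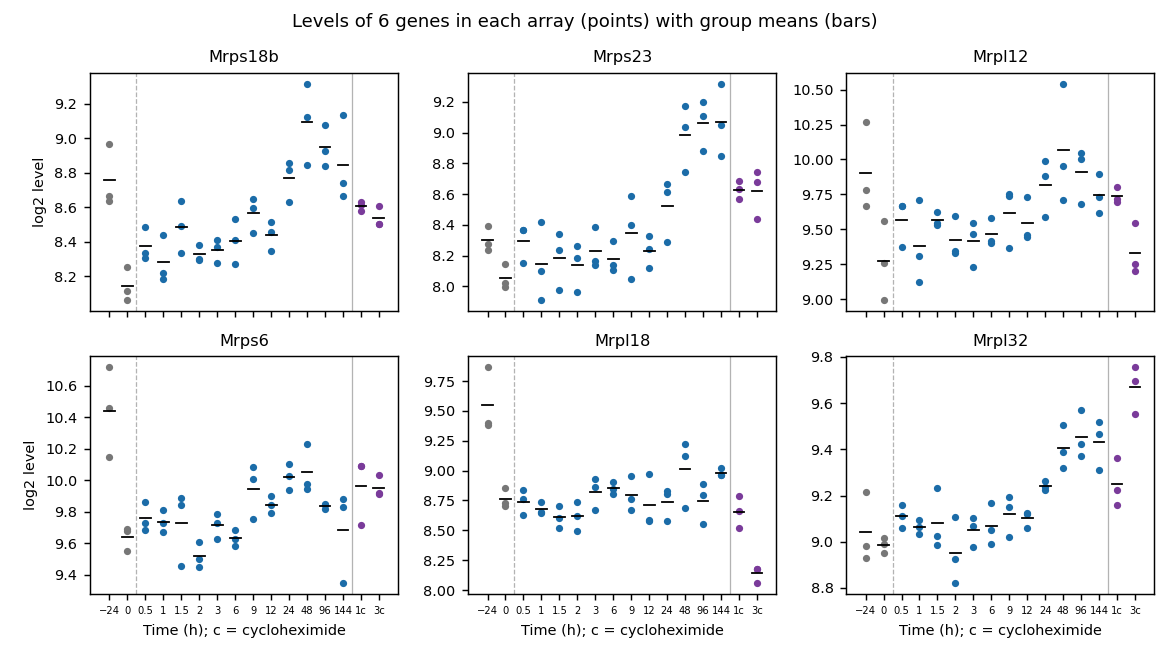
Log2 level of 6 genes in each array (points) with group means (bars), by time in hours (grey: growth medium; blue: differentiation medium; purple: cycloheximide). Mrps18b and Mrpl12 have their highest mean at 48 h and Mrps23 at 144 h, Mrps6 and Mrpl18 are highest at -24 h, and Mrpl32 is highest and Mrpl18 lowest with cycloheximide at 3 h; the vertical axes differ and do not start at 0.

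Because many of these genes were at their lowest at 0 h, the late groups were also set against -24 h, a reference chosen after the data were seen. Fewer genes then rose. At 24 h, 4 rose and 6 fell, against 13.5% and 13.2% of all genes (26.8% called). At 48 h, 24 rose and 3 fell, against 14.7% and 15.3% (30.1% called). For 96 h the counts were 21 and 3, against 20.6% and 18.3% (38.9% called), and for 144 h they were 20 and 4, against 17.8% and 17% (34.8% called). The median difference at 48 h was 0.17 for the 76 and 0.08 for all genes. At 96 h the medians were 0.11 and 0.10, and at 144 h they were 0.08 and 0.06.

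Against -24 h, Mrps23 led at 48 h with 0.69 (SE 0.14, adjusted p = 0.000162) and at 144 h with 0.77 (SE 0.14, adjusted p = 1.86e-05). Mrps31 rose by 0.52 and 0.53 at these times. Mrpl43 and Mrps34 rose by 0.69 and 0.68 at 144 h, and Mrps28 and Mrpl23 by 0.45 each at 48 h.

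Mrps6, Mrpl18 and Mrpl47 did not regain their -24 h level. At 144 h Mrps6 read 9.35, 9.83 and 9.88, which was 0.76 lower than at -24 h (log2 difference -0.76, SE 0.13, adjusted p = 4.92e-06). Mrpl18 read 9.02, 8.96 and 8.96, a difference of -0.57 (SE 0.12, adjusted p = 0.000307), and Mrpl47 read 8.58, 8.08 and 8.04, a difference of -0.67 (SE 0.18, adjusted p = 0.00233), which was lost when its probe sets were averaged. In all 3 genes every 144 h array lay below every -24 h array, as in 17.9% of all genes. The other gene that fell was Mrps2, by 0.26 (adjusted p = 0.0328). That call did not hold when the first or the third -24 h array or the first 144 h array was left out (adjusted p between 0.0548 and 0.209), nor with quantile or housekeeping scaling or the mean of all probe sets.

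Of the 3 proteins of the stalk region, which recruits translation factors to the ribosome, 2 rose at 48 h, Mrpl12 and Mrpl11. Mrpl12 read 10.54, 9.95 and 9.71 at 48 h and 9.62, 9.89 and 9.73 at 144 h, 0.80 (SE 0.17, adjusted p = 0.000476) and 0.48 (adjusted p = 0.0330) above 0 h. The 144 h call was lost without the second or the third array of either group (adjusted p between 0.0676 and 0.221). Mrpl11, at the base of the stalk, read 8.97, 8.83 and 8.80 at 0 h, 9.59, 9.49 and 9.26 at 48 h and 8.95, 9.42 and 9.50 at 144 h. It rose by 0.58 at 48 h (SE 0.13, adjusted p = 0.000557) and by 0.43 at 144 h (adjusted p = 0.00933), where the call was lost without the second or the third 144 h array (adjusted p 0.0643 to 0.0949).

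Mrpl10, which anchors the stalk, read 8.73, 8.68 and 8.19 at 0 h, 8.86, 8.81 and 8.44 at 48 h and 8.57, 8.90 and 8.56 at 144 h. Its differences of 0.17 (SE 0.18, adjusted p = 0.549) and 0.14 (adjusted p = 0.642) did not pass the test, and its groups overlapped. Whether Mrpl10 differs in its rise from the other 2 was not tested.

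Mitochondria of mammals hold 3 relatives of the bacterial protein S18, which lie at different places in the ribosome. Mrps18b is given above, and it had fallen by 0.61 before the switch (SE 0.11, adjusted p = 0.000129), from 8.97, 8.67 and 8.64. Mrps18a, which sits in the large subunit, read 8.85, 8.67 and 8.48 at 0 h, 9.56, 9.18 and 8.90 at 48 h and 8.89, 9.38 and 9.09 at 144 h. It rose by 0.55 at 48 h (SE 0.15, adjusted p = 0.00414), a call lost without the first 48 h array (adjusted p = 0.0750), and by 0.46 at 144 h (adjusted p = 0.0152), a call lost without the third 0 h or the second 144 h array (adjusted p between 0.110 and 0.150).

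Mrps18c, the one at the bacterial position, read 9.43, 9.34 and 9.48 at -24 h, 9.02, 9.00 and 9.09 at 0 h, 9.48, 9.24 and 9.47 at 48 h and 9.31, 9.51 and 9.45 at 144 h. It fell by 0.38 before the switch (adjusted p = 0.00526) and rose by 0.36 at 48 h (adjusted p = 0.00458) and 0.39 at 144 h (adjusted p = 0.00180), and the first 2 calls were lost when arrays were centred on housekeeping genes. Its late arrays stood at about the -24 h level, with a difference of 0.01 (SE 0.10) at 144 h.

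Mrpl45, which lies at the exit of the peptide tunnel and ties the ribosome to the inner membrane, read 9.51, 9.08 and 8.96 at -24 h, 9.03, 8.78 and 8.79 at 0 h, 9.55, 9.04 and 8.91 at 48 h and 9.07, 9.21 and 8.87 at 144 h. Its 48 h difference of 0.30 (SE 0.14) had an adjusted p of 0.118, and of 0.0159 with the replicate block that pairs these groups. Mrps36, the protein outside the ribosome, read 8.68, 8.61 and 8.63 at 0 h, 9.05, 8.78 and 8.72 at 48 h and 8.68, 9.09 and 9.12 at 144 h. It was not called at 48 h (0.21, adjusted p = 0.134) and rose by 0.31 at 96 h (adjusted p = 0.0181) and 0.32 at 144 h (adjusted p = 0.0158). The 144 h call was lost without the second 0 h array, the second 144 h array or the third 144 h array (adjusted p between 0.0515 and 0.130).

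The 25 genes never called after the switch came from both subunits, with 17 from the large and 8 from the small. Their differences at 48 h ran from -0.09 for Mrpl33 to 0.36 for Mrpl50. Mrps9, Mrps33, Mrpl58 and Mrps16 differed from 0 h by at most 0.06 in size at 48 h (SE between 0.12 and 0.19). A difference that missed the threshold is not shown to be 0, and the standard errors of these differences give the size that the arrays could not resolve.

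The sequence upstream of the genes was read because so many of them moved together. RefSeq promoter windows (mouse build GRCm38.p6, 250 bases before to 50 after the start) were matched by gene identifier, or failing that by symbol, for 67 of the 76 genes, 73 windows in all. They were searched on both strands for motifs of factors known to act on nuclear genes of mitochondria. The motif of NRF1, GCGCANGCG, was in 15 windows (20.55%, against 6.249% of 32851 windows). The core of the ETS motif bound by GABPA, CCGGAAG, was in 25 (34.25%, against 8.858%), and 34 windows (46.58%, against 13.9%) held at least 1 of these. The YY1 motif AAGATGGCG was in 8 (10.96%, against 1.403%). The motif of the estrogen-related receptors (ERR), AAGGTCA, was in 4 (5.479%, against 4.718%) and the Myc E-box CACGTG in 7 (9.589%, against 7.15%). The windows of these genes were richer in G and C, with a median of 58.67% against 52.67%. A match is a run of letters and not a measured binding site.

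The promoter windows of 7 genes that the text turns on are shown, picked after their values were seen: Mrpl1, Mrps18b and Mrps23, which had the largest rises at 48 h or 144 h, Mrps6, which fell most before the switch, Mrpl12, which fell and then rose, and Mrpl32 and Mrpl18, which moved in opposite directions with cycloheximide. Each runs 5′ to 3′ on the gene's strand, and capitals mark the matches to the 5 motifs above on either strand. Mrps18b (chr17:35916391-35916690, minus strand) holds 1 NRF1 and 1 ETS match. Mrps23 (chr11:88204138-88204437, plus strand) holds 1 ETS match. Mrpl12 (chr11:120484387-120484686, plus strand) holds 1 NRF1 match and 1 ERR match. Mrpl32 (chr13:14612988-14613287, minus strand) holds 3 NRF1 matches, of which 2 overlap. Mrpl18 (chr17:12916042-12916341, minus strand) holds 1 ETS match. Mrps6 (chr16:92058086-92058385, plus strand) and Mrpl1 (chr5:96209865-96210164, plus strand) hold 0 matches to any of the motifs.
Mrps18b: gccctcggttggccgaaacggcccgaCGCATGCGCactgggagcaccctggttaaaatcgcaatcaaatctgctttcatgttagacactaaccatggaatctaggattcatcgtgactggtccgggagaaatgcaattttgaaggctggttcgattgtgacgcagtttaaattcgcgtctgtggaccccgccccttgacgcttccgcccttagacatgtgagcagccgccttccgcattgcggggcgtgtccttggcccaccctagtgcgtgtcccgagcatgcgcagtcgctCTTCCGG
Mrps23: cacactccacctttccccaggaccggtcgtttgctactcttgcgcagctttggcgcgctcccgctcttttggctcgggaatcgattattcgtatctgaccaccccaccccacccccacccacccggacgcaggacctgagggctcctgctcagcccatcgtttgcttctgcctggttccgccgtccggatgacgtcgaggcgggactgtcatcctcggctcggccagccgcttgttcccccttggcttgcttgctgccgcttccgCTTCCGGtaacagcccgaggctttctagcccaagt
Mrpl12: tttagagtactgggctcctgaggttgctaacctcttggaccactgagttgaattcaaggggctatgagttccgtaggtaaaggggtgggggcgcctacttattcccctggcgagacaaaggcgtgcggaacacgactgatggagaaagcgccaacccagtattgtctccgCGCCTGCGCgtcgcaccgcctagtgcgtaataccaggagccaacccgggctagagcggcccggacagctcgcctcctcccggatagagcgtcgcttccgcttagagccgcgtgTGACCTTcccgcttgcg
Mrpl32: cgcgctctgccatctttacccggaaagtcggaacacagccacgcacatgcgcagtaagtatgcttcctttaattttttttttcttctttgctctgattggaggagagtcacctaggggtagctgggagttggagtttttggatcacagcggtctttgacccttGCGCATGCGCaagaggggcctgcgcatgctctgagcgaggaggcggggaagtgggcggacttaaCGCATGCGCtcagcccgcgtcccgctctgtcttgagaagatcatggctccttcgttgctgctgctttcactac
Mrpl18: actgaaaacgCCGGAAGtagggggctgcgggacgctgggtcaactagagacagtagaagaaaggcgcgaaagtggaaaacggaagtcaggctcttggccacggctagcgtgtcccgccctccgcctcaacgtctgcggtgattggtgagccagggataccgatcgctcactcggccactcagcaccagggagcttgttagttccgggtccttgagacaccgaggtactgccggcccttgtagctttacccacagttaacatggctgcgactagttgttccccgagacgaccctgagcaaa
Mrps6: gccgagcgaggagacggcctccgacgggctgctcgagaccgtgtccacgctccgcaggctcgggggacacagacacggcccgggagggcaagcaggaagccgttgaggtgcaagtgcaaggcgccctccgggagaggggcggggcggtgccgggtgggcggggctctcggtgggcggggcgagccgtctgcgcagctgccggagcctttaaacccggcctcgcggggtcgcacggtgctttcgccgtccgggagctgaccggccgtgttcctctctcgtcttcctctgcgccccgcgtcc
Mrpl1: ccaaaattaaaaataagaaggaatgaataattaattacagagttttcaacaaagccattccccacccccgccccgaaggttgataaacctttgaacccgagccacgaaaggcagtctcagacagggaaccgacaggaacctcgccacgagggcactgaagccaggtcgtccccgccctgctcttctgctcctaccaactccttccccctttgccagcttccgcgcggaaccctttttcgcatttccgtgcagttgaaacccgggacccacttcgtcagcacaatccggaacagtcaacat

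With cycloheximide, which way most called members moved depended on the scaling of the arrays, and as deposited the share that rose was near that of all genes at both times. As deposited, 20 of the 76 rose and none fell at 1 h, against 24.2% of all genes that rose (24.6% called in all), with a median difference of 0.27 for the 76 and 0.20 for all genes. After quantile normalization of all arrays again, 1 fell, Mrpl33, and none rose, against 2.36% and 4.42% of all genes. After centring on housekeeping genes none was called, where 4.3% of all genes rose and 3.65% fell. After centring on the array median 11 fell, against 19.6% of all genes. The count was 7 and 9 without the second or the third untreated 1 h array, 9 and 4 without the second or the third treated array, and 3 with only the 6 arrays compared.

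At 3 h, 24 of the 76 rose and 5 fell as deposited, against 30.9% and 3.42% of all genes (34.4% called), with medians of 0.15 and 0.19. Quantile normalization again left 3 risen and 15 fallen (12.9% and 11.1% of all genes), centring on housekeeping genes 20 risen and 6 fallen (21.8% and 3.8%), and centring on the array median 1 risen and 33 fallen (9.72% and 34.9%). Without the first treated array, 15 rose and 4 fell. With the replicate block, which pairs these groups, 28 rose and 7 fell, against 35.9% and 5.02% of all genes. The signals of the 6 treated arrays were higher as a whole, and how much of this came from the cells was not tested.

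**Figure D5:**
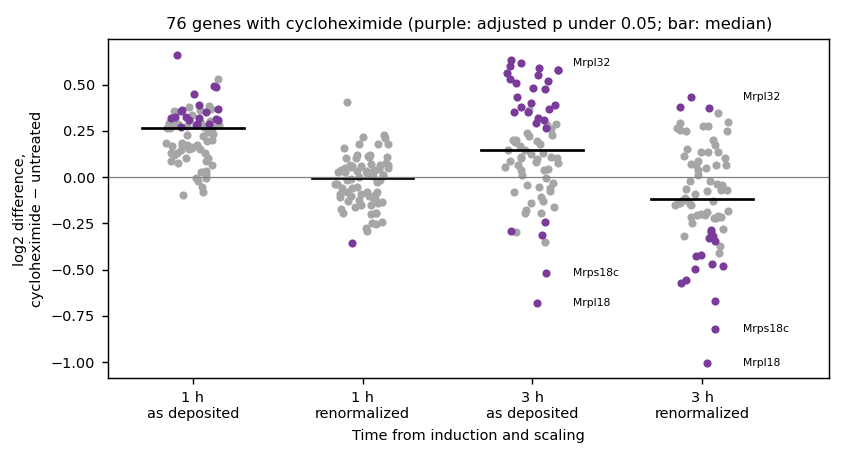
Log2 difference between cycloheximide and untreated arrays for each of the 76 genes (points; purple where the adjusted p is under 0.05) at 1 h and 3 h, as deposited and after quantile normalization of all arrays again, with medians as bars. The median falls from 0.27 to -0.00 at 1 h and from 0.15 to -0.12 at 3 h, while Mrpl32 stays at or near the top and Mrpl18 and Mrps18c at the bottom of the 3 h columns.

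Mrpl32, a large-subunit protein whose cleavage by an inner-membrane protease is a step of ribosome assembly, rose at 3 h under each of these scalings. It read 9.10, 8.98 and 9.07 in untreated cells at 3 h and 9.76, 9.70 and 9.55 with the drug. The difference was 0.62 as deposited (SE 0.08, adjusted p = 2.73e-07), 0.43 after quantile normalization again (adjusted p = 5.25e-05) and 0.21 after centring on the array median (adjusted p = 0.0432). As deposited, the treated arrays lay above the untreated ones, which held for 43.2% of all genes.

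Mrps2, a small-subunit protein with a bacterial relative, read 8.33, 8.33 and 8.44 without the drug and 9.00 in each of the 3 treated arrays, and rose by 0.63 (SE 0.10, adjusted p = 2.35e-06). Mrpl45 read 8.87, 8.90 and 8.65 against 9.55, 9.45 and 9.19 and rose by 0.59 (SE 0.14, adjusted p = 0.00112). Both kept the call after quantile normalization again, with 0.38 and 0.37, and lost it after centring on the array median (0.23 and 0.18, adjusted p = 0.0716 and 0.272). For both genes all treated arrays lay above all untreated ones, as they did for 43.2% of all genes as deposited.

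Mrpl1 and Mrps27 rose as deposited but not after quantile normalization again. Mrpl1 read 6.08, 6.18 and 6.20 against 6.83, 6.57 and 6.85, a rise of 0.60 (adjusted p = 0.00439, and 0.273 after renormalization), and its next probe set differed by 0.45. Mrps27, an RNA-binding protein of the small subunit, read 6.76, 6.74 and 6.40 against 7.46, 7.17 and 6.996. It rose by 0.58 (adjusted p = 0.0270, and 0.376 after renormalization). Its call was also lost without 1 untreated array (replicate 3) or without the first or second treated array (adjusted p between 0.0537 and 0.139).

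Mrpl18 and Mrps18c fell at 3 h under each scaling tried. Mrpl18 read 8.93, 8.86 and 8.67 without the drug and 8.18, 8.06 and 8.18 with it, and fell by 0.68 as deposited (SE 0.12, adjusted p = 3.40e-05) and by 1.00 after quantile normalization again (adjusted p = 3.17e-09). Mrps18c read 9.32, 9.10 and 9.26 against 8.70, 8.52 and 8.90, and fell by 0.52 (SE 0.10, adjusted p = 4.99e-05) and by 0.82 (adjusted p = 2.52e-08). As deposited, all treated arrays of both genes lay below all untreated ones, as they did for 6.21% of all genes. The treated levels of Mrpl18 were also below those of each array at 0 h.

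The other 3 that fell as deposited were large-subunit genes with smaller changes. Mrpl52 read 10.40, 10.31 and 10.60 against 10.24, 9.92 and 10.22 and fell by 0.31 (adjusted p = 0.0295). Mrpl14 read 9.24, 9.21 and 9.11 against 8.92, 8.91 and 8.86 and fell by 0.29 (adjusted p = 0.0479). Mrpl13 read 11.06 in each untreated array against 10.89, 10.87 and 10.69 and fell by 0.24 (adjusted p = 0.0227). Each of the 3 lost its call as deposited without certain single arrays: Mrpl52 without the first or the third untreated or the second treated array (adjusted p 0.0502 to 0.211), Mrpl14 without any of the 6 (0.0503 to 0.133), and Mrpl13 without the first or second untreated or the third treated array (0.0517 to 0.137). After quantile normalization again all 3 fell, by 0.47, 0.57 and 0.34.

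At 1 h the genes with the largest rise as deposited were Mrpl44, Mrpl34, Mrps23, Mrpl16 and Mrps30, with differences of 0.66, 0.49, 0.49, 0.45 and 0.39. None of the 5 kept its call after quantile normalization again, where the differences were 0.41, 0.23, 0.21, 0.21 and 0.11 (adjusted p between 0.162 and 0.702). Mrps23 lost its call also without the second untreated array (adjusted p = 0.0819), and Mrps30 without the second or the third array of either group (adjusted p between 0.0705 and 0.101).

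Mrps18b read 8.44, 8.22 and 8.19 without and 8.58, 8.61 and 8.63 with the drug at 1 h, a rise of 0.33 as deposited (adjusted p = 0.0302) and a difference of 0.05 after quantile normalization again. Its rise was lost on leaving out the second or the third untreated array or any treated one (adjusted p between 0.0538 and 0.123). At 3 h its difference was 0.19 (adjusted p = 0.2003). The stalk genes did not pass the test at either time as deposited. Mrpl12 read 9.71, 9.12 and 9.31 against 9.70, 9.80 and 9.72 at 1 h (0.36, adjusted p = 0.127) and 9.47, 9.54 and 9.23 against 9.55, 9.25 and 9.20 at 3 h (-0.08). Mrpl10 differed by 0.36 at 3 h, with an adjusted p of 0.118, and of 0.00188 with the replicate block that pairs these groups. Mrps36 read 8.53, 8.46 and 8.66 against 8.36, 8.42 and 8.29 at 3 h, a difference of -0.19 as deposited (adjusted p = 0.157) and a fall of 0.50 after quantile normalization again (adjusted p = 0.000435). Mrpl11 read 8.91, 9.08 and 8.84 against 8.75, 8.80 and 8.85 (-0.14 as deposited, adjusted p = 0.417) and fell by 0.42 after renormalization (adjusted p = 0.0172).

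The change of the drug's effect from 1 h to 3 h was tested directly. As deposited, 1 gene rose in this sense (Mrpl32) and 3 fell (Mrpl18, Mrpl34 and Mrps18c), against 2.65% and 1.64% of all genes (4.29% called). After centring on housekeeping genes 3 rose (Mrpl32, Mrpl9 and Mrps2) and none fell, against 7.01% and 0.621% of all genes. The count was 1 without the second untreated 1 h array, the first or second untreated 3 h array or the second treated 3 h array, and 2 without the third treated 1 h array or the first treated 3 h array.

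Other genes of mitochondrial translation gave a mixed picture. Besides the 76, 4 ribosomal proteins with other names were measured: at 48 h 2 of 4 rose, Ptcd3 by 0.49 (adjusted p = 0.00209) and Chchd1 by 0.40 (adjusted p = 0.00214), both of the small subunit. Both had fallen before the switch, by 0.48 and 0.36, and the calls of both in these 2 comparisons were lost after centring on housekeeping genes. The fall of Chchd1 was also lost without the first -24 h array (adjusted p = 0.0952). As deposited, 12.4% of all genes rose at 48 h and 26.7% were called in all. Of 21 assembly factors, 7 rose and none fell at 48 h. Of 12 translation factors, 4 rose, among them Tsfm, an elongation factor, by 0.57 (adjusted p = 0.00166), and none fell. Of 16 mitochondrial tRNA synthetases, 5 rose and 1 fell, and Nars2, the asparagine enzyme, rose most, by 1.52 (adjusted p = 5.11e-07).

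Of 15 regulators of mitochondrial genes, 3 rose and 1 fell at 48 h, where 12.4% of all genes rose (26.7% called in all). Polrmt, the mitochondrial RNA polymerase, rose by 0.63 (adjusted p = 0.00385), Tefm, its elongation factor, by 0.57 (adjusted p = 0.000296), and Gabpa, the DNA-binding subunit of the factor whose motif is given above, fell by 1.70 (adjusted p = 0.00186). With the replicate block, which pairs these groups, 6 regulators rose and 1 fell, against 16.2% and 17.2% of all genes. Housekeeping centring at 48 h gave 2 risen and 1 fallen assembly factor, the same numbers of translation factors, and 3 risen and 2 fallen synthetases. In that scaling 6.66% of all genes rose and 20.5% fell.

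Many subunits of the respiratory chain and ATP synthase rose late as well: of 76 such genes, 4 rose and 3 fell between -24 h and 0 h, 44 rose at 48 h and 49 at 144 h, none falling at either, with medians of -0.02, 0.30 and 0.36. With housekeeping centring 16 rose and 1 fell before the switch, 22 rose and 3 fell at 48 h, and 40 rose and 2 fell at 144 h, where the shares of all genes were 13.8% and 3.47%, 6.66% and 20.5%, and 10.1% and 17.4%. Of 46 genes of the cytosolic ribosome, 0 rose and 2 fell before the switch, and 3 rose and none fell at 48 h. At 144 h 3 rose and 9 fell, against 13.5% and 14.9% of all genes. The medians of the cytosolic genes were 0.01, -0.01 and -0.07. As deposited, 7.26% of all genes rose and 5.86% fell before the switch. At 48 h 12.4% of all genes rose (26.7% called in all). Centring on housekeeping genes gave 2 risen and 13 fallen cytosolic genes at 48 h, where 6.66% of all genes rose and 20.5% fell. Whether these lists differ from the 76 genes was not tested.

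With cycloheximide at 3 h, 19 of 21 assembly factors rose and none fell as deposited, with a median of 0.91, and 14 rose after quantile normalization again (median 0.63). Of all genes, 30.9% rose and 3.42% fell as deposited, and 12.9% rose and 11.1% fell after renormalization. Of the respiratory subunits 1 rose and 9 fell as deposited, with a median of -0.08, and 0 rose and 22 fell after renormalization. Mettl17, an assembly factor of the small subunit, rose by 1.13 (adjusted p = 2.48e-09), and Myc, a transcription factor, by 4.06 (adjusted p = 1.94e-17).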

How the data were processed

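The authors deposited log2 values made with RMA, per the submitters' processing notes, for 45101 probe sets on 48 arrays. The version of RMA, and whether all arrays were run together, are not given in the sources used here. Values were used as deposited. Of the probe sets, 64 were controls and 34945 had exactly 1 symbol in the platform annotation. Where a gene had several probe sets, the one with the largest average signal on these arrays was used (18193 genes). The 76 members had 156 probe sets, and 30 of the chosen ones carry a suffix that marks possible cross-hybridisation. Mrpl30 and Mrpl53 share their probe sets with other genes and were not analysed here.

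All 48 arrays entered 1 linear model of the 16 group means (limma 3.58.1 in R 4.3.3; 32 residual degrees of freedom, two-sided moderated tests). P-values were adjusted over all genes. The fit was tested on simulated data. The members, gene lists and tests were chosen with earlier results of these data known. Text names the 5 members with the largest change in each direction in the main comparisons, 3 in others, the 3 highest and 3 lowest, the stalk proteins, the Mrps18 genes, Mrpl45 and Mrps36, plus up to 3 genes per list and direction.

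Replicate number was taken from the labels, and the design states successive passages without tying numbers to them. The correlation of deviations was above 0.1 for all 3 numbers in 14 of 19 comparisons, which were read as paired, and the fit with the number as a block is given beside them where it changes a call. The others were 0 h against -24 h, 1 h and 144 h against 0 h, 144 h against 96 h and cycloheximide at 1 h. Alternatives were limma with trend and robust moderation, quantile normalization again, centring on 13 measured housekeeping genes or on the array median, the mean of all probe sets, leaving out probe sets with a suffix, only the arrays compared, and leaving out each array. Counts from fits that leave out arrays are given without the share of all genes in the same fit. They show only how far a count depends on those arrays. Precision is limited by the number of arrays, 3 in each group.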

Additional observations from a re-analysis of the deposited data

Results flagged for a closer look

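The effect of cycloheximide differed between 1 h and 3 h, by a test of the difference itself, for 4 of the 76 genes. Of all genes 4.29% were called in this test, so the share of the 76 was near that of all genes. The change of the effect was 0.43 for Mrpl32 (SE 0.12, adjusted p = 0.0267), -0.66 for Mrpl18 (adjusted p = 0.0197), -0.65 for Mrpl34 (adjusted p = 0.0222) and -0.51 for Mrps18c (adjusted p = 0.0201). All 4 kept the call after quantile normalization again (0.49, -0.71, -0.71 and -0.56). After centring on housekeeping genes Mrpl32 alone of the 4 kept it (0.66), and the others had adjusted p-values of 0.114, 0.0722 and 0.252. Each call was lost when certain single arrays were left out (adjusted p between 0.0508 and 0.101), 7 of 12 for Mrpl32 and 4 of 12 for each of the others. Mrpl32 also lost its call with trend and robust moderation. With only the arrays compared, Mrpl32, Mrpl34 and Mrps18c lost theirs, and Mrpl34 also with the mean of all probe sets.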

How the results depend on the processing

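Of the alternatives tried, these moved counts of the 76 genes by over 1.5 times. With trend and robust moderation the count for 48 h against 24 h was 0 and over the early times 1. After quantile normalization again, 24 h against 0 h gave 30, 48 h against 24 h 0, cycloheximide at 1 h 1 and at 3 h 18. Centring on housekeeping genes gave 11 for 0 h against -24 h, 0 for 48 h against 24 h and 0 for cycloheximide at 1 h, and centring on the array median, chosen after seeing the data, 11 for the last. The mean of all probe sets gave 1 for 48 h against 24 h, and leaving out suffixed probe sets 1 for the early times. The replicate block gave 3 for 24 h against 12 h, 5 for 48 h against 24 h, 1 for 96 h against 48 h, 32 for cycloheximide at 1 h (which missed the rule for pairing) and 5 for the early times. It changed no other call of a named member in the paired comparisons. With only the arrays compared there were 13 for 0 h against -24 h, 18 for 144 h, 0 for 48 h against 24 h, 3 for cycloheximide at 1 h, 0 for the early times and 1 for the change from 1 h to 3 h. With -24 h as the reference, 24 h gave 10, 48 h 27 and 96 h 24. Leaving out each array in turn gave 9 to 20 for 0 h against -24 h, 6 to 18 for 24 h, 31 to 46 for 48 h, 34 to 45 for 96 h, 23 to 47 for 144 h, 0 to 3 for 48 h against 24 h, 0 to 1 for 96 h against 48 h, 4 to 26 and 19 to 28 for cycloheximide at 1 h and 3 h, 1 to 4 for its change, 0 to 5 for the early times and 41 to 51 for the F-test. Directions reversed without suffixed probe sets for Mrpl1 (-0.0139, -0.49 and -0.31 at 48, 96 and 144 h against 0 h; -0.22 and -0.51 at 48 and 144 h against -24 h), Nsun4 (-0.11 at 48 h, -0.0883 at 144 h) and Mtg2 (-0.0198 at 96 h, -0.0764 at 144 h), and with array-median centring for cycloheximide on Mrps18b (-0.0501 at 1 h), Mrpl57 (-0.14 at 3 h) and Chchd1 (-0.16 at 3 h). For these values the cause was not tested.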
